A study of Mus musculus with 4 samples.

Results

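The genes described here are 34 mouse genes of redox, glutathione and iron handling, taken by symbol from a fixed list of thioredoxins, peroxiredoxins, glutathione enzymes, superoxide dismutases, the NRF2 pathway, glutathione transferases and iron proteins. They were measured in inflammation-experienced regulatory T cells (Treg), the Foxp3-expressing CD4 T cells that restrain immune responses. All 34 symbols were found among the 55536 annotated genes of the gene tables, under 35 gene identifiers because Nnt has 2. PolyA-selected RNA was sequenced in 4 libraries, called libraries 1 to 4 after their technical replicate numbers in the labels, which give 1 biological replicate and 1 biosample. By label the biosample was male, adult, 6 months of age and of strain Foxp3CreERT2 x Rosa26YFP. In that strain Cre is tied to the Foxp3 gene and a fluorescent reporter to Rosa26. The labels trace the primary cells to bone marrow hematopoietic cells, give no other group, and do not say whether animals were pooled. All values therefore describe 1 population, and each p-value measures only the spread between libraries, which may be technical. In bulk RNA, fewer cells of a type and less RNA per cell cannot be told apart.

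Cells make superoxide and hydrogen peroxide in respiration and signalling, and 2 NADPH-fed systems reduce the products. In the thioredoxin system, thioredoxin reductase passes electrons to thioredoxins, which recharge the peroxiredoxins. In the glutathione system, glutathione made by Gclc, Gclm and Gss serves glutathione peroxidases, glutaredoxins and transferases, and Gsr returns it to its reduced form. NRF2, encoded by Nfe2l2, is a transcription factor that KEAP1 marks for degradation until oxidants or electrophiles modify KEAP1, and many of the genes listed are known NRF2 targets. Free iron turns peroxide into damaging radicals, so ferritin stores it, the transferrin receptor brings it in and ferroportin lets it out.

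3 kinds of sequence known from this chemistry were looked for in the transcripts and promoters. The first is the iron-responsive element, a hairpin bound by iron regulatory proteins when iron is low; in a 5′ UTR it holds back translation, and in the 3′ UTR of Tfrc it protects the message. The most counted coding transcript of each gene was searched for a C, then 5 bases, the loop CAGTGN, and 5 bases pairing with the first 5, with G-U pairs allowed. The loop is in capitals below, with mm10 coordinates and the strand of the gene.
Fth1, 5′ UTR of Fth1-201, chr19:9982732-9982760, plus: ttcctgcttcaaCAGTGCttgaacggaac
Ftl1, 5′ UTR of Ftl1-201, chr7:45459779-45459807, minus: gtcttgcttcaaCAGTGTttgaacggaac
Slc40a1, 5′ UTR of Slc40a1-201, chr1:45925465-45925493, minus: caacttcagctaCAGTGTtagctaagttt
Tfrc, 3′ UTR of Tfrc-201, chr16:32631219-32631247, plus: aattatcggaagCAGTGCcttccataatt
Tfrc, 3′ UTR of Tfrc-201, chr16:32631598-32631626, plus: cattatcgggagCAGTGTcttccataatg
Tfrc, 3′ UTR of Tfrc-201, chr16:32631663-32631691, plus: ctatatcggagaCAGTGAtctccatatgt
Tfrc, 3′ UTR of Tfrc-201, chr16:32631710-32631738, plus: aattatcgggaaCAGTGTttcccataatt
These are all 4 iron genes of the list. The pattern occurred in 1.15% of 21853 coding genes searched, in the 5′ UTR of 0.0869% (19 genes) and in the 3′ UTR of 0.48%, and Tfrc was the 1 coding gene with 4 or more matches. The fifth listed gene with a match was Keap1, where it lies in the coding sequence of Keap1-205. A match to these letters is a description of the sequence and not a measured binding site.

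The second is the TGA codon that selenoproteins read as selenocysteine, the residue that does the chemistry in these enzymes. The annotation marks such a codon in the most counted coding transcript of 23 coding genes. Of these genes 3 are on the list: the peroxidases Gpx1 and Gpx4 and the thioredoxin reductase Txnrd1. The codon is in capitals, with the flanking coding sequence.
Gpx1, chr9:108339451-108339453, plus, in Gpx1-201: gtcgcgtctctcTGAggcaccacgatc
Gpx4, chr10:80054737-80054739, plus, in Gpx4-207: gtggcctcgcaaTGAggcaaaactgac
Txnrd1, chr10:82896037-82896039, plus, in Txnrd1-201: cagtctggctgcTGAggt
In both peroxidases it lies inside the enzyme. In Txnrd1 it is codon 498 of 499, the last but one of the protein. Of those 23 genes, 14 had a mean of at least 10 TPM (a share of all transcripts, corrected for transcript length), among them these 3.

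The third is the core of the antioxidant response element, TGACNNNGC, the site type that NRF2 binds with a small MAF partner. It was sought on both strands from 250 bases before to 50 bases after the RefSeq start sites (GRCm38.p6). Of the 34 genes, 28 had a promoter in that set and 6 of those held the motif, 21.4%, beside 14% of all 27025 genes with a promoter and 12.4% of all 32851 promoters. The motif is in capitals, on the strand of the gene, where most copies read in the reverse direction as GCNNNGTCA.
Prdx1, chr4:116685456-116685484, plus: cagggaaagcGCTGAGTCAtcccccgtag
Txnrd1, chr10:82859104-82859132, plus: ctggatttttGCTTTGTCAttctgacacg
Gclm, chr3:122245413-122245441, plus: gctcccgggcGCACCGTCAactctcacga
Sod1, chr16:90220696-90220724, plus: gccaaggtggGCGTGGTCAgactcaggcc
Nfe2l2, chr2:75704885-75704913, minus: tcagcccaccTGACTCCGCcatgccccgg
Srxn1, chr2:152105542-152105570, plus: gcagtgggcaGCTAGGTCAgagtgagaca
The levels of these 6 genes ran from 1.13 TPM for Srxn1 to 876 TPM for Sod1. The data hold no treatment that acts on NRF2, so the motif is given beside the levels only.

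As a group the genes were well expressed. Their median level was 45.1 ± 2.85 TPM (SD of the library medians, n = 4), beside 14.1 TPM over all 13045 genes whose mean count reached 10. In all 4 libraries 13 of the 34 were at 100 TPM or more, 22 at 10 TPM or more and 29 at 1 TPM or more. The 22 are 64.7% of the list, whereas 28.1% of nuclear protein-coding genes reached 10 TPM in all libraries. Together the 34 took 7928 ± 360 TPM (SD, n = 4), and the ferritin pair Fth1 and Ftl1 made up 44.7 ± 2.30% of that. The levels fell into a few bands by role. Ferritins, Sod1 and Prdx1 led. Most peroxiredoxins, peroxidases and thioredoxins followed between about 100 and 500 TPM, and the enzymes that make or recycle glutathione stood near 5 to 11 TPM. The cystine importer Slc7a11 and the quinone reductase Nqo1 had means under 1 TPM.

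**Figure D1:**
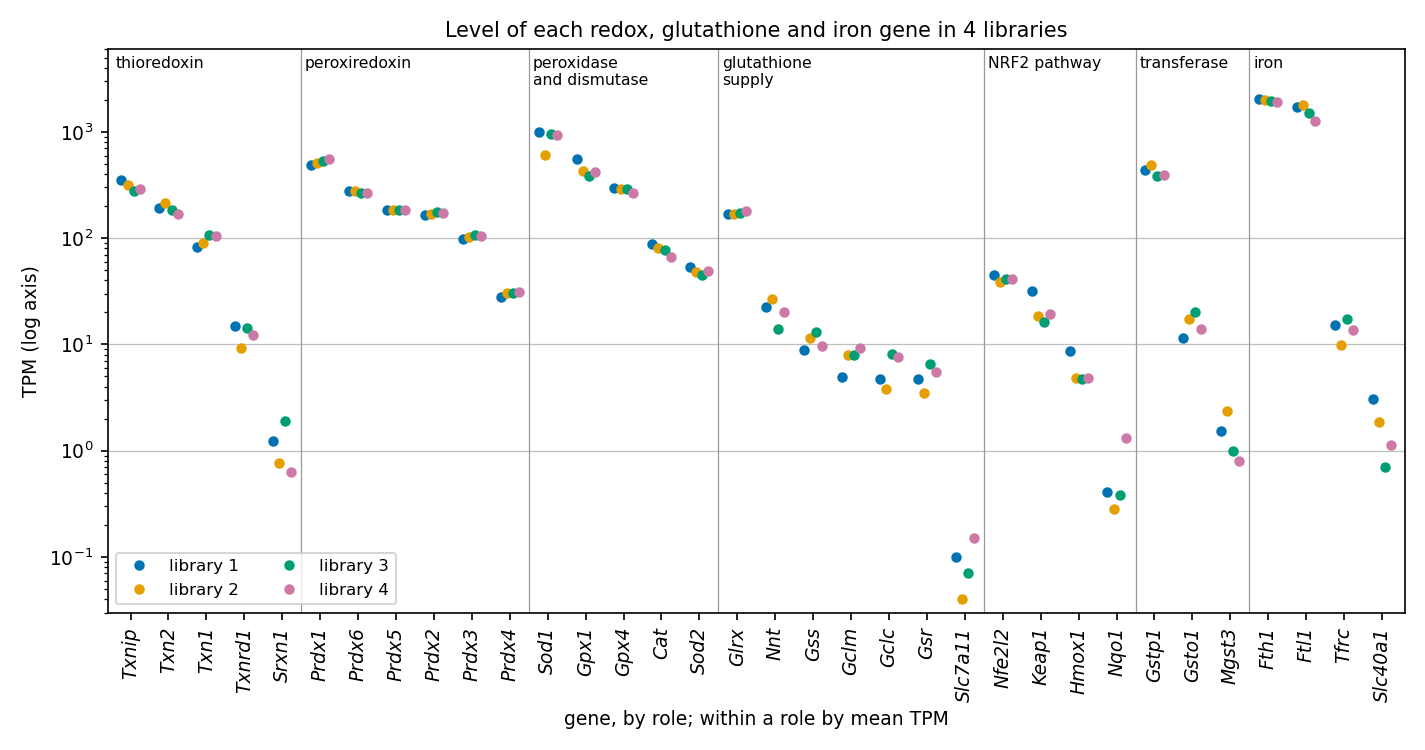
TPM of each of the 34 genes on a log axis, ordered by role and by mean level, with 1 point per library and the identifier of higher count for Nnt. Fth1 lies near 1977 TPM and Slc7a11 near 0.09 TPM, and the libraries of most genes above 100 TPM lie close together.

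The iron genes included the highest levels of the list and some of the lowest. Fth1, the ferritin heavy chain that oxidises iron for storage, was at 2028, 2011, 1970 and 1897 TPM in libraries 1 to 4. Ftl1, the ferritin light chain that helps the iron core form, was at 1702, 1790, 1519 and 1266 TPM. Fth1 was thus the higher of the pair in each library, by a mean log2 ratio of 0.34 ± 0.18 (SD, n = 4), and the gap was under 2 SD of its spread. Among nuclear protein-coding genes by mean TPM they ranked 55 and 67.

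Iron entry and exit genes were far lower. Tfrc, the transferrin receptor, was at 15.3, 9.98, 17.2 and 13.6 TPM, lowest in library 2. Slc40a1, ferroportin and the known exporter of iron from cells, was at 3.09, 1.88, 0.71 and 1.13 TPM, from 70, 41, 9 and 18 expected counts. Tfrc exceeded Slc40a1 in every library, by a mean log2 ratio of 3.13 ± 1.02 (SD, n = 4) on log2(TPM + 0.1), a scale that understates the ratio of low genes.

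Superoxide dismutases and peroxide-removing enzymes came next. Sod1, the cytosolic copper-zinc dismutase, was at 999, 607, 956 and 941 TPM, with library 2 well below the others. Sod2, the mitochondrial manganese dismutase, was at 53.6, 47.9, 44.7 and 49.0 TPM, and the libraries did not pass the test described below. The log2 ratio of Sod1 over Sod2 was 4.14 ± 0.33 (SD, n = 4). Cat, the peroxisomal catalase, was at 87.7, 80.7, 77.4 and 66.0 TPM, and Sod1 exceeded it by 3.47 ± 0.40 on the log2 scale.

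Gpx1, the general cytosolic glutathione peroxidase, was at 557, 432, 384 and 423 TPM, highest in library 1. Gpx4, the peroxidase of lipid hydroperoxides that guards cells from ferroptosis, was at 299, 287, 289 and 269 TPM. Gpx1 was higher in each library, by 0.64 ± 0.20 on the log2 scale (SD, n = 4). The order differed between quantifications, as given further on.

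All 6 peroxiredoxins, which reduce peroxides with a reactive cysteine, were at 10 TPM or more in every library. Prdx1, a cytosolic member, was the highest at 493 to 553 TPM, followed by Prdx6, which draws on glutathione, at 263 to 278 TPM. Prdx5, found in several compartments, was at 183 to 185 TPM, and Prdx2, the other main cytosolic member, at 166 to 176 TPM. Prdx3, confined to mitochondria, was at 98.7 to 108 TPM and Prdx4, of the endoplasmic reticulum, at 28.1 to 31.1 TPM. The ranges of neighbours in this order did not overlap, and those of Prdx5 and Prdx2 lay only a few TPM apart. Prdx1 exceeded Prdx2 by a log2 ratio of 1.61 ± 0.05 and Prdx6 by 0.95 ± 0.11, Prdx2 exceeded Prdx4 by 2.51 ± 0.05, and Prdx5 exceeded Prdx3 by 0.84 ± 0.06 (SD, n = 4). The summed peroxiredoxin level was 1283 ± 29.2 TPM (SD, n = 4). Prdx5 and Prdx6 changed places in the scaled M4 counts, a further quantification described below, at 287 ± 11.3 and 256 ± 3.31 (SD, n = 4). The read-based table, also described below, kept the order of the means.

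Of the thioredoxin system, the inhibitor was the highest message. Txnip, which binds thioredoxin and limits glucose uptake, was at 352, 316, 277 and 292 TPM. Txn2, the mitochondrial thioredoxin, was at 192, 215, 184 and 169 TPM, and Txn1, the cytosolic thioredoxin, at 82.1, 89.8, 107 and 104 TPM. Txn1 lay below Txn2 by 0.99 ± 0.29 and below Txnip by 1.69 ± 0.33 on the log2 scale (SD, n = 4), in each library. Txnrd1, the cytosolic reductase that feeds thioredoxin, was at 14.98, 9.25, 14.3 and 12.2 TPM, and Srxn1, the sulfiredoxin that repairs overoxidised peroxiredoxins, at 1.23, 0.76, 1.90 and 0.63 TPM.

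The genes that make glutathione were low and close to each other. Gss, which joins glycine to complete glutathione, was at 8.84, 11.5, 13.0 and 9.72 TPM. Gclm, the modifier subunit of glutamate-cysteine ligase, was at 4.97, 7.92, 7.96 and 9.24 TPM, and Gclc, its catalytic subunit, at 4.74, 3.79, 8.18 and 7.61 TPM. Gclm over Gclc had a log2 ratio of 0.34 ± 0.49 with the sign changing between libraries, so these subunits did not differ beyond their spread. Gss over Gclc was 0.87 ± 0.52, of 1 sign in all libraries but under 2 SD. Gsr, which recycles glutathione, was at 4.75, 3.50, 6.50 and 5.53 TPM, below Txnrd1 by 1.32 ± 0.24 on the log2 scale (SD, n = 4).

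By contrast Glrx, the glutaredoxin that uses glutathione to reduce protein disulfides, was at 168, 171, 174 and 179 TPM. Slc7a11, the transporter that imports cystine for glutathione synthesis, had 2, 1, 2 and 2 expected counts, between 0.04 and 0.15 TPM. Counts this small do not show whether the gene is on. Nnt, the mitochondrial transhydrogenase that makes NADPH, is described with its 2 identifiers below.

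Among the NRF2 pathway genes, Nfe2l2 was at 44.7, 38.9, 41.0 and 41.1 TPM and its inhibitor Keap1 at 31.9, 18.4, 16.3 and 19.4 TPM. Nfe2l2 exceeded Keap1 in each library, by a log2 ratio of 0.99 ± 0.36 (SD, n = 4), least in library 1. Of their classical targets, Hmox1, the heme oxygenase that releases iron from heme, was at 8.59, 4.82, 4.74 and 4.88 TPM. Nqo1 was at 0.41, 0.28, 0.38 and 1.33 TPM, from 4, 3, 4 and 10 expected counts. Hmox1 exceeded Nqo1 by 3.23 ± 1.00 on the log2 scale (SD, n = 4).

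The 3 transferases lay at quite different levels. Gstp1, the pi-class enzyme that conjugates glutathione to electrophiles, was at 442, 491, 385 and 391 TPM. Gsto1, an omega-class enzyme, was at 11.5, 17.4, 20.01 and 13.9 TPM, and Mgst3, a membrane-bound member, at 1.52, 2.34, 0.99 and 0.80 TPM. The log2 ratio of Gstp1 was 4.78 ± 0.41 over Gsto1 and 8.24 ± 0.48 over Mgst3 (SD, n = 4).

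In all, 20 gene pairs were compared, and 17 had 1 sign in all libraries with a mean over 2 SD. The exceptions were Gclm with Gclc, Gss with Gclc, and Fth1 with Ftl1. The exact permutation test, two-sided with signs flipped over 4 libraries, cannot go below p = 0.125. No pair could therefore pass 0.05, and the adjusted p was 0.132 for 19 pairs and 0.25 for Gclm with Gclc. The sizes of several ratios depended on the quantification. With the scaled M4 counts, Sod1 over Sod2 was 5.35 in place of 4.14, Fth1 over Ftl1 1.00 in place of 0.34, and Gss over Gclc 1.49 in place of 0.87 on the log2 scale. Txn1 over Txn2 was -0.31 in place of -0.99 and Txn1 over Txnip -0.63 in place of -1.69. The log2 ratio of Gstp1 was 3.66 over Gsto1 and 7.11 over Mgst3, and that of Txnrd1 over Srxn1 5.41 in place of 3.47. With the read-based TPM Txn1 over Txnip was -0.99.

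The libraries themselves differed for most of these genes by a small factor. Each gene's share of counts was compared across the 4 libraries with a Poisson likelihood ratio test in edgeR, on TMM-scaled library sizes, with Benjamini-Hochberg adjustment over all genes whose mean count reached 10. Of the 34 genes 31 entered the test, Nqo1, Mgst3 and Slc7a11 being too low. The test called 26 of the 31, beside 68.4% of all genes tested. The listed genes had a median mean count of 760 against 200 for all genes tested, and a higher count lets a smaller difference pass. Their median excess SD, the spread of log2 CPM (counts scaled to a common library size) after counting noise is subtracted, was 0.203, beside 0.216 over all genes tested. Prdx4, Gclm, Sod2, Nfe2l2 and Srxn1 did not pass.

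Few of the differences were large. With a fold between highest and lowest library of at least 2, computed with 0.5 counts added, 3 of the 31 were called, Slc40a1, Nnt and Keap1, beside 15.7% of all genes. Slc40a1 had the widest at 7.98-fold (adjusted p = 8.81e-13), with libraries 1 and 2 above libraries 3 and 4. It spanned 2.90-fold without library 3 and 4.79-fold without library 1, and was called in each case. Keap1 spanned 2.12-fold (adjusted p = 4.50e-30), with library 1 above the others, and 1.35-fold without that library (adjusted p = 0.000547). Hmox1 spanned 1.94-fold (adjusted p = 0.00173) and Gclc 1.90-fold (adjusted p = 2.00e-08); for Gclc libraries 3 and 4 were above libraries 1 and 2.

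**Figure D2:**
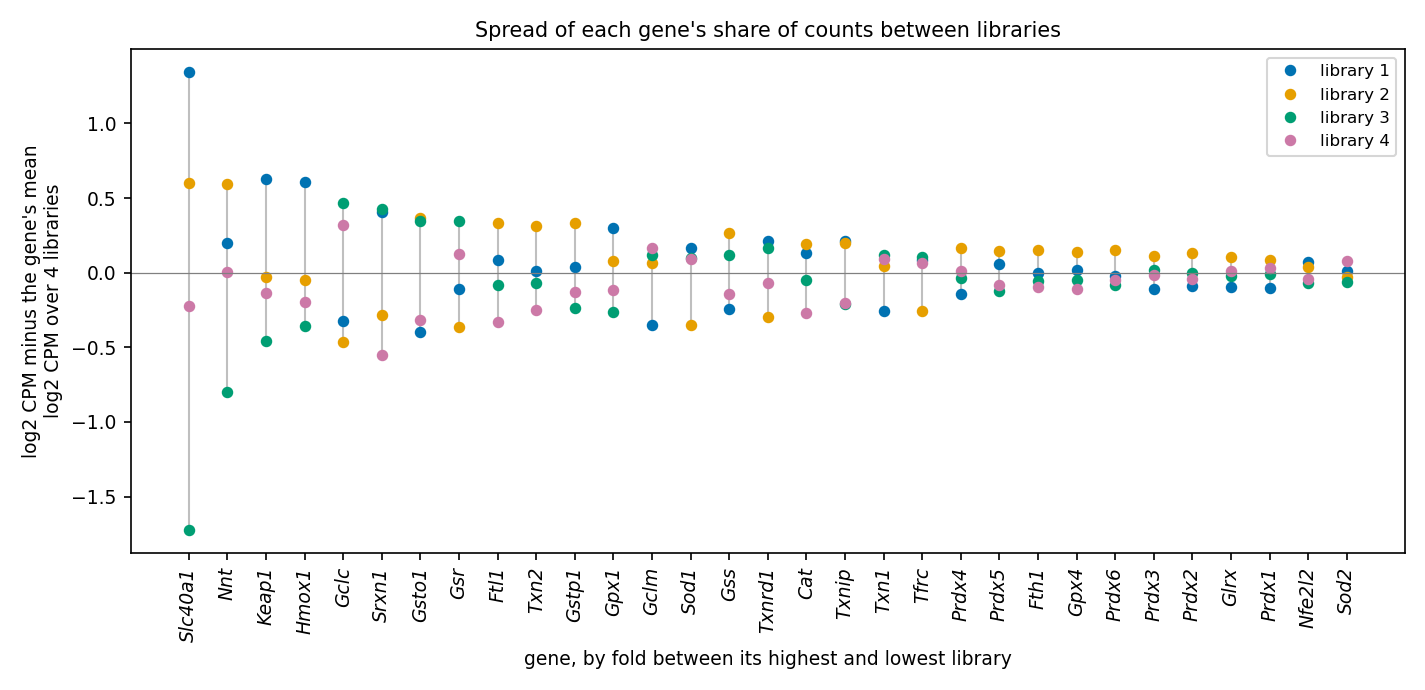
For each of the 31 genes tested, log2 CPM on TMM-scaled library sizes minus the gene's mean over libraries, 1 point per library, ordered by the fold between highest and lowest library. Slc40a1, Nnt, Keap1 and Hmox1 spread most at the left, and the points of library 2 lie on top for many of the genes at the right.

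Many of the calls were lost when library 2 was left out. On the TMM scale 16 of the 31 genes had their highest share in library 2, beside 29.6% of all genes tested. With DESeq2 size factors the number was 15 beside 27.05% of all genes, with library totals alone 11 beside 20.9%, and by TPM 6 beside 15.5%. The direction thus depends on the scaling, for these genes and for all genes. Fth1 shows it: its CPM was 1208, 1347, 1168 and 1135, highest in library 2, while its TPM was highest in library 1. Without library 2 the test called 16 of 31 in place of 26, beside 54.8% of all genes. Without library 1 it called 21 of 31 beside 54.4%, without library 3 25 of 32 beside 60.7%, and without library 4 25 of 32 beside 61.8%. The 10 genes that lost their call without library 2 were Txnrd1, Prdx2, Prdx3, Prdx6, Gpx4, Gsr, Gss, Glrx, Sod1 and Tfrc.

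Sod1 is the clearest of them. Its CPM was 383, 269, 366 and 364, so library 2 stood alone and the other libraries lay within a narrow range. The call had an adjusted p of 1.08e-45 with all libraries and 0.164 without library 2 (edgeR likelihood ratio test). Library 2 was also the lowest in the read-based table and in the M4 counts, 2 further quantifications of the same libraries, with spans of 1.46-fold and 1.42-fold. Txnrd1 and Tfrc were lowest in library 2 as well, with CPM of 37.5, 26.4, 36.3 and 30.8 for Txnrd1 and 40.2, 31.8, 40.7 and 39.7 for Tfrc. Without library 2 their adjusted p was 0.0966 and 0.932.

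Compared by pairs of libraries, the listed genes differed least between libraries 3 and 4, where 8 of 31 were called beside 20.6% of all genes. Between libraries 1 and 2 the test called 20 of 32 beside 39.6%, between 2 and 3 18 of 32 beside 43.8%, and between 2 and 4 17 of 32 beside 42.8%. Between libraries 1 and 3 it called 15 of 31 beside 44.3%, and between 1 and 4 13 of 31 beside 42.5%. Over all genes the biological coefficient of variation, edgeR's measure of spread beyond counting, lay between 21.1% and 23.5% for 5 pairs of libraries, and for libraries 3 and 4 it was 12.2%. Depth was 9284432, 9341328, 9325636 and 6648385 expected counts.

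On the TMM scale library 1 was highest for 8 of the 31 genes, beside 28.2% of all genes tested. The 8 were Keap1, Hmox1, Gpx1, Slc40a1, Sod1, Txnip, Txnrd1 and Nfe2l2. Of these, Hmox1 lost its call without library 1 (adjusted p = 0.641), and so did Txn1 (0.698), Prdx3 (0.204), Gss (0.136) and Glrx (0.0576), which were lowest there (edgeR likelihood ratio test). Summed markers of all 5 other cell types were highest in library 1. The 10 red cell genes measured summed to 1069 TPM in library 1, nearly all of it globin. In libraries 2 to 4 they summed to 5.43, 39.1 and 18.5 TPM. Klf1 and Epor were instead highest in library 4, on at most 4 counts per library. The 14 macrophage genes summed to 69.03, 33.96, 21.6 and 34.7 TPM, with the highest means for Lyz2 at 21.9, 4.33, 4.00 and 13.4 TPM and for Apoe at 22.8, 8.78, 8.04 and 7.85 TPM. Not all macrophage genes followed: C1qa, C1qc and Fcgr1 were highest in library 2, Marco was at 0 in library 1, and Adgre1, which encodes F4/80, had 13, 20, 0 and 5 counts. The 7 granulocyte genes summed to 8.91, 0.11, 0.42 and 3.09 TPM, in library 1 all of it from S100a8 and S100a9. Mpo and Elane were at 0 in library 1 and highest in library 4, and Camp and Ngp were at 0 in every library. The 5 B cell genes summed to 177, 125, 79.0 and 149 TPM and the 5 plasma cell genes to 135, 54.6, 119 and 84.4 TPM, though Cd79b was highest in library 4 and Jchain in library 3. Macrophages are known for high Slc40a1 and Hmox1 in iron recycling. B cell and macrophage sums were lowest in library 3, where Slc40a1 was lowest too. Red cell, granulocyte and plasma cell sums were instead lowest in library 2, where Slc40a1 was at 1.88 TPM, above libraries 3 and 4. Macrophage sums were close in libraries 2 and 4, where Slc40a1 had 41 and 18 expected counts. The part of these cells in the levels of Slc40a1, Hmox1, Keap1 and Gpx1 was not tested. All 6 Treg genes and all 5 T cell genes, which the label calls for, were at 10 TPM or more in each library. Foxp3, among the Treg genes, was at 20.3, 21.7, 32.8 and 36.4 TPM. The B cell gene Cd79b and the plasma cell gene Jchain also passed 10 TPM in each library, with means of 79.1 and 52.35 TPM. No marker list here bears on inflammation experience.

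**Figure D3:**
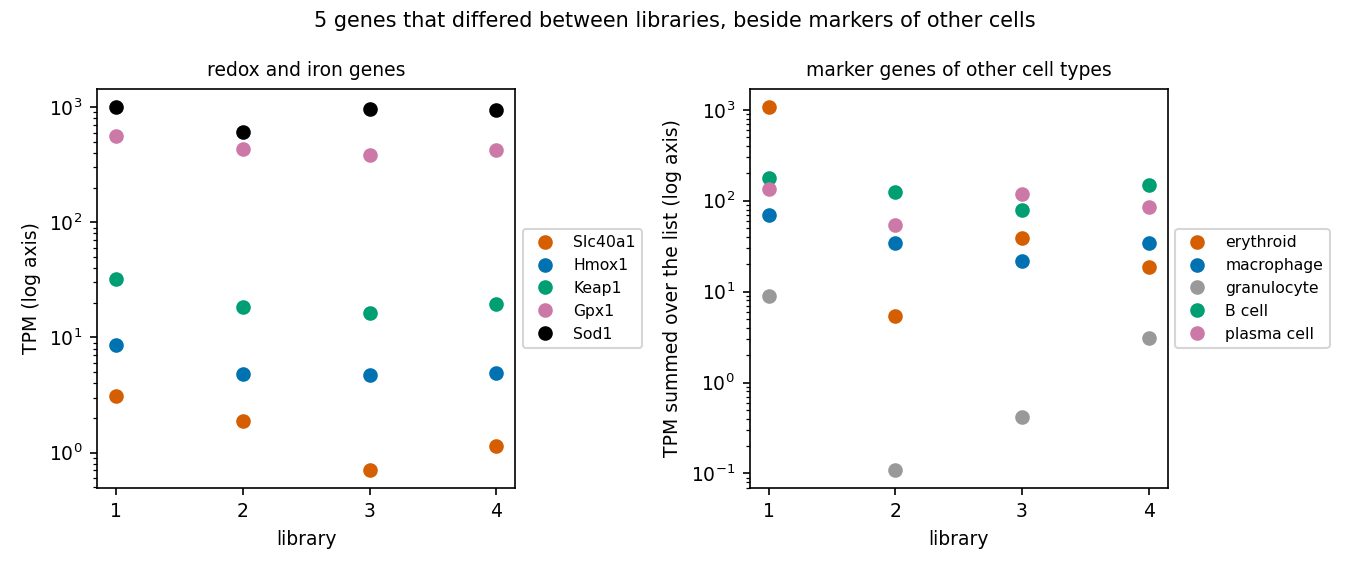
Left, TPM of 5 listed genes in each library, and right, the summed TPM of marker genes of 5 other cell types, both on log axes with 1 point per library. The red cell sum is 1069 TPM in library 1 and at most 39.1 TPM in the others, and Slc40a1, Hmox1, Keap1 and Gpx1 are also highest in library 1. By TPM 12 of the 31 genes tested are highest in library 1, beside 33.0% of all genes tested.

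The spread of Nnt differed with how its 2 identifiers were counted. The identifier of higher count, ENSMUSG00000025453.18 at chr13:119335448-119408997 on the minus strand, had 468, 604, 251 and 310 expected counts. ENSMUSG00000116207.1, at chr13:119335528-119408952 on the same strand, had 0, 0, 259 and 0. The sole transcript of the latter, Nnt-206 of 3339 bases, lies wholly within Nnt-202 of the former, of 3464 bases, and 96.3% of the 50-base words of Nnt-202 occur in it. In libraries 1, 2 and 4 Nnt-202 held 312, 345 and 152 expected counts and Nnt-206 none, while in library 3 Nnt-202 held none and Nnt-206 259. The read-based table instead gave Nnt-206 55.6% to 71.99% of the Nnt counts in every library. Summed over both identifiers, Nnt was at 22.4, 26.9, 24.6 and 20.4 TPM, 23.6 ± 2.79 (SD, n = 4), and 24.8 ± 2.94 in the read-based table over coding genes. The span of 2.63-fold for the identifier of higher count became 1.51-fold for the sum (adjusted p = 2.03e-08, edgeR likelihood ratio test), so 2 listed genes, Slc40a1 and Keap1, kept a called span of at least 2-fold.

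**Figure D4:**
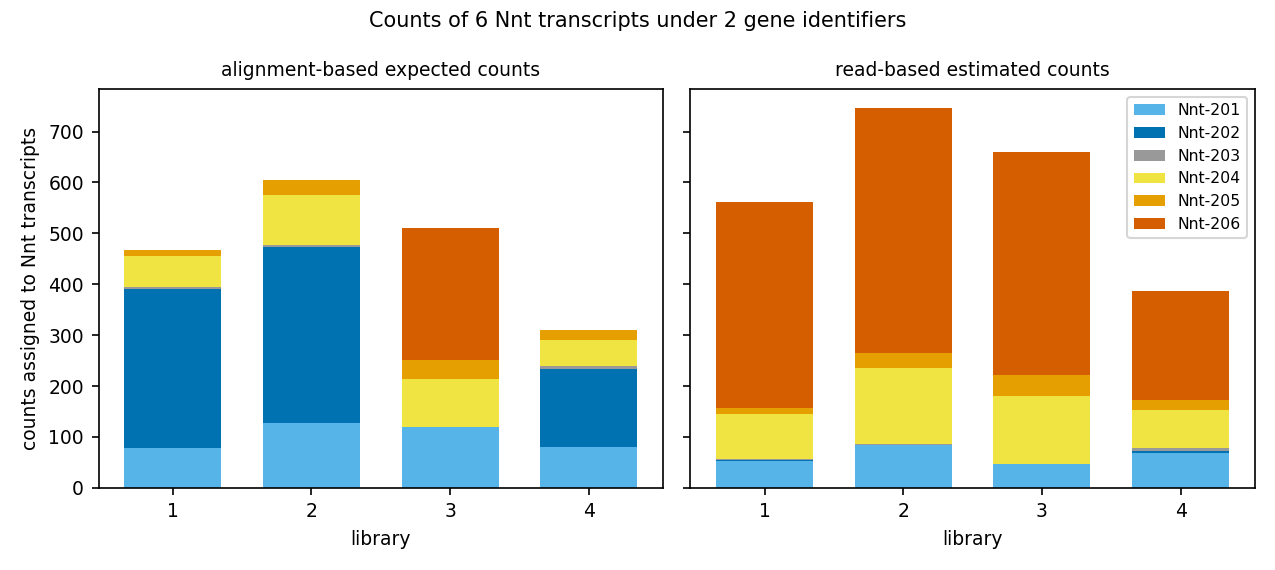
Counts of the 6 Nnt transcripts in each library, stacked, in the alignment-based gene tables at left and the read-based tables at right. Nnt-202 carries 312, 345 and 152 counts in libraries 1, 2 and 4 at left, and Nnt-206, of the other identifier, carries 259 in library 3 at left and most counts in all libraries at right.

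Gpx4, Ftl1 and Gstp1 share most of their transcript sequence with copies elsewhere in the genome. Gpx4 shares 78.4% of its 50-base words with the processed pseudogene Gpx4-ps2, which the alignment-based table lists at 140 ± 6.61 TPM (SD, n = 4) and the read-based table at 0.794 TPM. Gpx4 was at 286 TPM in the former, and the deposited posterior SD of its count was 0.717 of the square root of that count, beside 0.0114 for Sod1. Over coding genes alone it was at 361 TPM in the alignment-based and 453 TPM in the read-based table, where the deposited TPM of Gpx1 and Gpx4 were 217 and 217. Their log2 ratio of 0.64 was thus -0.01 in the read-based table, and it was 0.46 in the length-scaled M4 counts, so Gpx1 was the higher in 2 of the 3 quantifications. What sets the difference was not tested.

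Ftl1 shares 73.4% of its words with Ftl1-ps1 and 78.9% with 15 genes together, and Ftl1-ps1 was listed at 49.2 ± 6.62 TPM. Gstp1 shares 62.3% of its words with Gstp2. Gstp2 was listed at 30.3, 4.12, 3.78 and 0.78 TPM, Gstp3 at 181 ± 32.2 and Gstp-ps at 15.2 ± 2.70 TPM (SD, n = 4). The remaining copies at 1 TPM or more in a table were Fth-ps2 at 1.82, Gpx2-ps1 at 1.17 and, in the read-based table, Ftl2-ps at 1.10 TPM. Sod1 shares 23.1% of its words with Gm8566, Prdx1 10.9% with 3 genes, Prdx2 9.65% with 2 genes including Tdpx-ps1, and Fth1 6.59% with Gm6977. For 22 of the genes no word occurred in another gene.

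The 3 quantifications gave nearly the same order of genes. Over coding genes, the read-based table lay within 1.5-fold of the alignment-based one for 31 of 34. The M4 counts, scaled by transcript length, lay within 1.5-fold of the deposited alignment-based TPM for 25. Across the 34 genes Spearman's rho was 0.990 and 0.984, as a description over genes that share libraries and are not replicates. The read-based exceptions were Slc7a11, Nnt by its identifier of higher count, and Txnip. Slc7a11 was at 2.09 TPM in the read-based table over coding genes, 90.4% of it in Slc7a11-202, beside 0.114 TPM in the alignment-based and 0.0383 in the M4 counts. The M4 counts were lower for Glrx, at 0.493 of the expected counts, Srxn1 at 0.169, Gstp1 at 0.704, Gclm at 0.680, Sod2 at 0.679 and Tfrc at 0.688, and higher for Prdx4 at 2.04, Gpx4 at 1.92 and Prdx5 at 1.81 of them. These 9 genes are the ones beyond 1.5-fold after scaling by transcript length. The ratios printed for them are of counts before that scaling, on which the set beyond 1.5-fold would be a different one. Beside 26 called genes of 31 in the alignment-based table, the read-based table called 27 of 33 (62.4% of all genes) and the M4 counts 29 of 31 (78.4%).

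**Figure D5:**
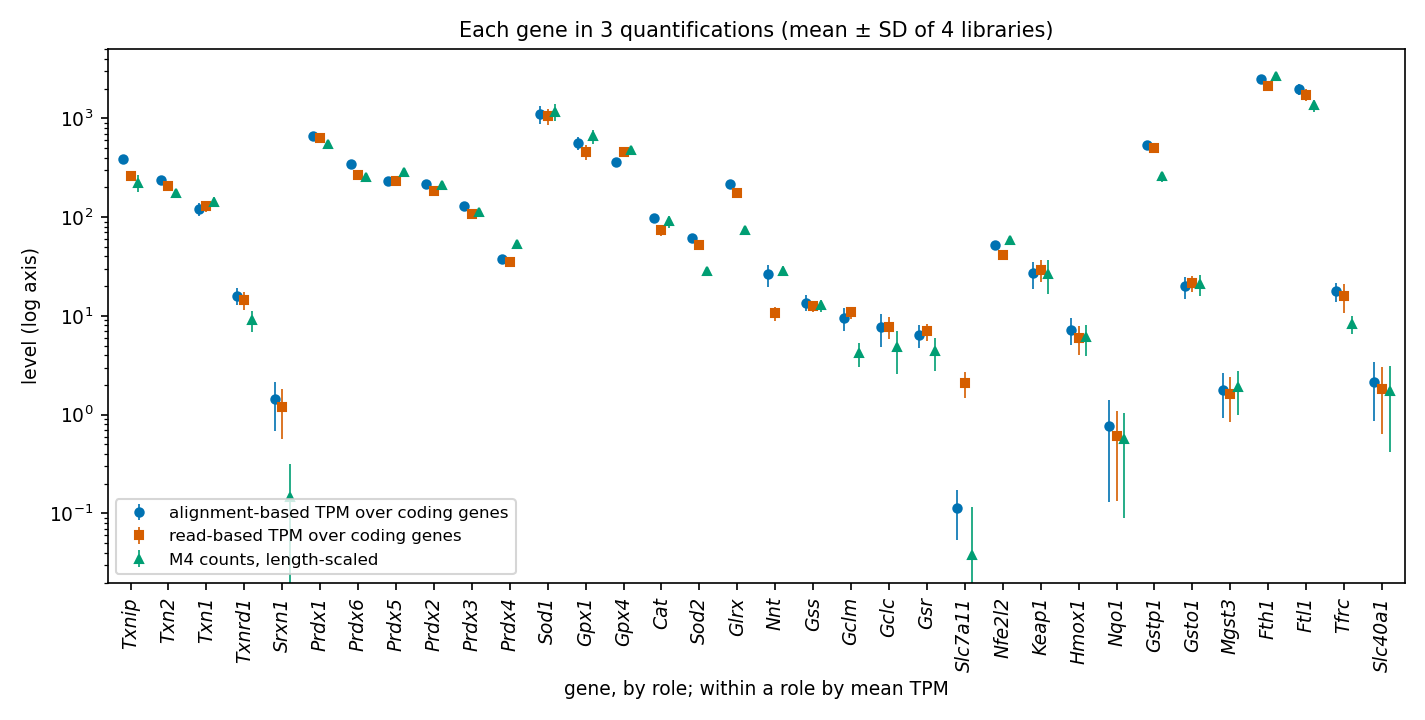
Mean ± SD over 4 libraries of each gene in 3 quantifications on a log axis, with Nnt by its identifier of higher count. Bars that would pass 0 run off the axis. The alignment-based and read-based levels are over coding genes, whereas the M4 counts are scaled to deposited TPM, a lower scale. Alignment-based Fth1 is at 2493 over coding genes and at 1977 in deposited TPM. The order of genes is nearly the same in the 3, but for many genes the bars do not overlap. Sod2, for example, is at 61.5 ± 3.54, 52.5 ± 2.56 and 28.2 ± 1.25. Slc7a11 is at 2.09 in the read-based table and 0.114 and 0.0383 in the others, and the M4 counts lie low for Srxn1, Glrx and Gclm.

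In most genes 1 transcript held the larger part of the TPM. The leading transcript held at least 90% of the gene's TPM in 16 genes and at least 50% in 27, and 4 genes have 1 annotated transcript. The read-based table had the same leading transcript in 28 of 34, the exceptions being Txnip, Prdx5, Gpx1, Tfrc, Slc7a11 and Nnt. For 4 genes the leading transcript is not annotated as coding. Prdx6-208, marked for nonsense-mediated decay, held 45.7 ± 0.616% of Prdx6, and Sod2-207, a processed transcript, 42.5 ± 3.43% of Sod2. Tfrc-204 and Slc7a11-204, both retained-intron transcripts, held 51.9 ± 11.6% of Tfrc and 58.2 ± 43.0% of Slc7a11 (SD, n = 4). In the read-based table Tfrc was led by Tfrc-201, the coding transcript with the 4 hairpins, at 38.6% beside 31.8% for Tfrc-204. By contrast Fth1-201 held 97.9 ± 0.691% of Fth1 and Ftl1-201 97.9 ± 0.336% of Ftl1, so nearly all ferritin signal was assigned to the transcripts whose 5′ UTR hairpins are printed above.

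Other genes of these pathways were measured from lists that held none of the 34. Of the thioredoxin-related genes, 11 of 15 were at 10 TPM or more in all libraries, led by Txndc9 at 114 ± 6.51 and Tmx1, a membrane disulfide enzyme, at 89.9 ± 10.2 TPM, with Msrb3 lowest at 0.155 TPM. The test called 8 of 13, widest for Arrdc4 and Arrdc3, arrestins related to Txnip, at 2.47-fold and 1.80-fold. Of the glutathione genes 10 of 27 were at 10 TPM or more, with Esd at 155 ± 16.6 and the glutamine transporter Slc1a5 at 106 ± 31.4 TPM. Slc1a5 was at 143, 67.0, 102 and 110 TPM, lowest in library 2 as Sod1, Txnrd1 and Tfrc were. Cth, which makes cysteine, was at 0 counts in all libraries, and Ggt1 and Ggt5 spanned 7.67-fold and 4.64-fold on at most 27 counts; 12 of 20 were called.

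Of the NADPH sources 6 of 10 were at 10 TPM or more. Mthfd2, a mitochondrial folate enzyme, was at 97.0 ± 13.6 and Pgd, of the pentose phosphate pathway, at 51.8 ± 10.1 TPM. Aldh1l2 was lowest at 0.01 TPM, though at 0.661 TPM in the read-based table over coding genes, where Me1 was lower at 0.0300. The test called 7 of 8, with Nadk at 1.99-fold and Idh1 at 1.69-fold. Of the NRF2 regulators 10 of 16 were at 10 TPM or more, led by Rbx1, a part of the KEAP1 ubiquitin ligase, at 250 ± 9.52 and the constitutive heme oxygenase Hmox2 at 84.6 ± 7.96 TPM. The small MAF gene Maff was lowest at 1.18 ± 0.0695 TPM, on at most 6 counts per library. It was not lowest in the other quantifications. Maff was at 4.3 TPM in the read-based table over coding genes and 5.5 in the scaled M4 counts, beside 1.45 and 0.6975 for Sesn2. The test called 12 of 15, widest for Nfe2l1, a relative of NRF2, at 25.8, 8.59, 13.5 and 17.8 TPM, and for Sesn2 at 2.38-fold.

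Of 24 further iron genes 9 were at 10 TPM or more. Pcbp2, an iron chaperone and RNA-binding protein, was at 154 ± 10.3 and Ncoa4, the receptor that delivers ferritin for breakdown, at 69.5 ± 10.6 TPM (SD, n = 4), and the oxidase gene Heph had 0 counts. The test called 11 of 18. The widest was Trf, serum transferrin, at 5.89, 6.56, 0.28 and 1.94 TPM and 28.3-fold; like Slc40a1 it was higher in libraries 1 and 2 than in libraries 3 and 4. Its mean level was 3.67 TPM here, 5.57 in the read-based table over coding genes and 0.170 in the scaled M4 counts. Iscu, an iron-sulfur scaffold, spanned 2.52-fold. Of 8 ferroptosis genes 4 of 5 tested were called, with Gch1 widest at 3.47-fold. At 10 TPM or more were 3, among them the lipid-activating Acsl4 at 32.3 ± 5.36 and Dhodh at 33.6 ± 4.16 TPM. Alox12 was lowest at 0.105 TPM, though at 1.08 TPM in the read-based table over coding genes, where Alox5 was lower at 0.144.

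Of 11 sources of reactive oxygen 3 were at 10 TPM or more. The NADPH oxidase subunits Cyba and Ncf4 were at 553 ± 87.0 and 129 ± 15.6 TPM (SD, n = 4), and Nox4, Duox1 and Duox2 had 0 expected counts in all libraries; 4 of 5 tested were called. The read-based table over coding genes nevertheless listed Nox4 at 2.86 TPM and the M4 counts at 0.0116, so whether it was expressed is not settled here. In the alignment-based table a count of 0 allows up to 3 counts, or 0.321 to 0.451 CPM by library, for counting error only. Across the 7 lists the called shares stand beside the same 68.4% of all genes tested.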

How the data were processed

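Each of the 4 libraries of 1 group came with 3 quantifications on mm10. The main one was the authors' deposited gene and transcript tables with expected counts, TPM, the posterior SD of the count and each transcript's percent of its gene, per the file headers, from a transcriptome alignment on GENCODE M21, per the notes deposited beside the files. The read-based one was the authors' deposited estimated count and TPM for every M21 transcript. The last was a deposited gene table of whole-number counts from GENCODE M4. The programs behind these tables, and their strand settings, were not given in the sources used.

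Rows outside the annotation (0.133% to 0.504% of expected counts) were left out. Expected counts were rounded. Share of counts was tested between libraries with edgeR 4.0.16 in R 4.3.3 (glmFit, dispersion 0, TMM, mean count at least 10, Benjamini-Hochberg at 0.05), because a term per library leaves no residual degrees of freedom for a quasi-likelihood test. DESeq2 1.42.0 gave alternative size factors. Pair ratios used log2(TPM + 0.1). M4 counts (22195 matched genes) were divided by effective length, at least 50 bases, and scaled to the deposited TPM total of those genes. The rest ran in Python 3.11.15 (pandas 2.3.3, scipy 1.17.1, matplotlib 3.10.9, numpy 2.4.6). The test was first tested on simulated data.

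The genes and lists were chosen with earlier results of these data known. The text names all 34 listed genes; from each pathway list the 2 highest, the lowest and the called genes of widest span; copies at 1 TPM or more; and marker genes. Other copies and list genes are given by counts. 1 list gene that this rule names is not reported here. Sequences are from GENCODE M21 transcripts and RefSeq promoters (GRCm38.p6). Protein sequences were not used here.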

Additional observations from a re-analysis of the deposited data

Results flagged for a closer look

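In each of 35 identifiers the most extreme library's gap to its nearest neighbour was divided by the range over the 4 libraries, and 4 exceeded Dixon's 95% critical value for 4 samples, where chance flags about 1 in 20. Sod1 had a ratio of 0.85 because library 2, at 607 TPM, lay below 941 to 999 TPM in the others. Hmox1 had 0.964, with 8.59 TPM in library 1 and 4.74 to 4.88 TPM in the others. Nqo1 had 0.876, with 1.33 TPM in library 4 from 10 counts and 0.28 to 0.41 TPM in the others from 3 or 4 counts. The Nnt identifier ENSMUSG00000116207.1 had 1, with 10.7 TPM in library 3 and 0 in the others.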

How the results depend on the processing

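The median level of 45.1 TPM became 22.6 with the deposited read-based TPM, 55.7 with M4 counts, 56.9 with TPM over coding genes and 71.8 with CPM without length correction; it was 43.8 to 45.9 leaving out 1 library. Rescaled over coding genes, an alternative chosen after seeing the data, the read-based median was 47.1. The number of genes at 10 TPM or more in all libraries ranged from 20 to 25 over the quantifications. Called genes numbered 25 to 29 under other scalings, count minimums and quantifications and with both Nnt identifiers summed (added after seeing the data), but 16 without library 2, and 16 to 25 leaving out 1 library in turn. Genes called with a span of at least 2-fold numbered 3, beside 15.7% of all genes tested. In the M4 counts they numbered 6 of 31 (Gsr, Gclc, Gclm, Keap1, Mgst3 and Slc40a1), beside 18.1% of all genes. They numbered 2 without library 1, beside 9.57%, 2 without library 2, beside 10.85%, and 1 without library 3, beside 11.1%. The median excess SD of 0.203 was 0.13 without library 2, with a range of 0.13 to 0.225; the cause was not tested. Without library 3 Gsr, and without library 4 Gpx4, also lost their call (adjusted p of 0.174 and 0.0537, edgeR likelihood ratio test). Of the 17 pairs over 2 SD, 1 changed sign, Gpx1 over Gpx4, at -0.0128 with the deposited read-based TPM. Of the other pairs, Gclm over Gclc changed sign from 0.34 to -0.12 with M4 counts and -0.67 with CPM, and Gss over Gclc from 0.87 to -0.03 with CPM. By more than 1 SD, 14 of 20 pair ratios moved with M4 counts, 14 with CPM and 4 with a pseudocount of 1 TPM. With the read-based TPM 9 did, besides Gpx1 over Gpx4, which changed sign and also moved by more than 1 SD. No paired analysis was possible because the labels give 1 group. Depth limits Slc7a11, Nqo1, Mgst3 and Srxn1, which rest on 25 counts or fewer per library.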
